A study of Mus musculus with 6 samples.

Results

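The muscle splicing regulators Rbfox1, Rbfox2, Mbnl1, Mbnl2, Mbnl3, Celf1, Celf2, Ptbp1, Ptbp2 and Rbm24 were examined in RNA-seq libraries of mouse satellite cells (SCs), the resident stem cells of skeletal muscle. These 10 genes of 35976 in the tables, with their 215 transcripts of 106521, were taken by name, by a rule that uses no measured value, though the set was chosen with earlier results of these data known. The 3 NF-YAcKO libraries come from mice in which tamoxifen activates Pax7-CreERT2, a Cre recombinase expressed in Pax7-positive cells, and removes the floxed part of Nfya between introns 2 and 8. The 3 NF-YAfl/fl libraries come from tamoxifen-treated mice with the same floxed alleles and no Cre. Both groups therefore share the floxed alleles and the drug, and differ in the recombinase. The labels give an age of 5 to 7 weeks and tamoxifen at 20 mg/ml. The study's methods describe males of 6 to 8 weeks, 5 daily injections, muscle harvest 7 days after the last one, depletion of CD31, CD45, CD11b and Sca1 cells on magnetic beads, and 4 days of culture in growth medium, so the cells are a cultured population and not SCs taken directly from the fiber. The comparison asks how deletion of part of Nfya, which codes for NF-YA, the regulatory subunit of the CCAAT-binding factor NF-Y, goes with the level and the transcript forms of these genes.

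Alternative splicing changes widely as myoblasts become myotubes, and a small set of RNA-binding proteins directs much of it. Rbfox proteins bind UGCAUG and promote or block an exon according to whether they bind downstream or upstream of it. Muscleblind-like (Mbnl) proteins bind YGCY motifs and promote adult splice forms, while Celf proteins bind GU-rich RNA and often act in the opposite direction on the same exons. Ptbp1 binds pyrimidine-rich RNA and represses muscle and neuronal exons in undifferentiated cells, Ptbp2 is its neuron-enriched paralog, and Rbm24 promotes the inclusion of muscle exons. Several of these genes splice their own transcripts in a tissue-dependent way.

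Levels are given as CPM, the rounded expected counts relative to library size after TMM normalization, in the order of replicates 1, 2 and 3. Total expected counts ranged from 26936230 to 41118984 per library. A gene was called with an FDR (Benjamini-Hochberg over 17348 genes tested) under 0.01 in edgeR's quasi-likelihood test and a change past 1 in either direction on the log2 scale. The nature of the libraries was examined first. The level of Nfya itself overlapped between the groups, at 27.04, 28.5 and 26.98 CPM in NF-YAcKO and 23.4, 25.7 and 36.9 CPM in NF-YAfl/fl (log2 fold change -0.06, FDR = 0.81). The entry for the deleted Nfya allele held 22.3%, 26.4% and 34.2% of the Nfya counts in NF-YAcKO. It held 0 counts in each NF-YAfl/fl library, which allows a share of up to 0.489% in the shallowest of them (3 counts). The summed level of 5 differentiated muscle markers was 38.8 to 107 CPM in NF-YAcKO and 7123 to 9178 CPM in NF-YAfl/fl, and all 5 were called lower, so the control libraries held far more of these transcripts. Of the satellite cell and myoblast markers, Pax7 was at 145 to 201 CPM in NF-YAcKO and 73.5 to 105 CPM in NF-YAfl/fl (log2 fold change 0.94, FDR = 0.0062, under the fold threshold), and Cdh15 and Des were the 2 of 7 called, both lower, with a summed level of 1450 to 1630 CPM against 2223 to 3878 CPM over the 7. Macrophage markers (9 of 10 tested, all 9 called higher) summed to 128 to 248 CPM against 4.99 to 11.5, with Lyz2 as the most abundant. Schwann cell markers (3 of 4 called higher) summed to 14.99 to 20.2 CPM against 6.19 to 8.65, 1 of 5 endothelial markers (Kdr) was called higher, and 3 of 4 proliferation markers were called higher. Fibro-adipogenic markers (0 of 5 called) summed to 173 to 206 CPM in NF-YAcKO and to 198, 262 and 37.5 CPM in NF-YAfl/fl, where replicate 3 stood apart. Xist was at 836 to 852 CPM in NF-YAcKO and at 0.31 to 0.47 CPM in NF-YAfl/fl, and the 4 Y-linked genes examined showed the reverse. Males are described for both groups, so the labels or the sex of the mice are in doubt, and sex and genotype cannot be told apart. In such bulk RNA, fewer cells of a type and less RNA per cell cannot be told apart either, and the part of these differences in the results that follow was not tested. Whether the cultures of a group came from separate mice is not stated in the labels, so that p-values measure the spread between these libraries.

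Of the 10 genes, all passed the filter on low counts and Rbfox2 was the only one called. It was 3.21-fold lower in NF-YAcKO, where 7.67% of all genes tested were called lower and 4.65% higher. With the FDR threshold alone, Rbfox2 was lower and Ptbp1 was higher, against 9.97% and 10.3% of all genes. All 3 NF-YAcKO libraries lay below all 3 NF-YAfl/fl libraries for 5 genes, Rbfox1, Rbfox2, Mbnl2, Celf2 and Rbm24, and above them for Mbnl3 and Ptbp1, where 26.2% of all genes tested lay below and 29.1% above. Mbnl1, Celf1 and Ptbp2 overlapped between the groups. Over the 10 genes the log2 fold change had a median of -0.32, against -0.016 over all genes tested. DESeq2, the tool of the study, called more of them at the same thresholds, with Rbfox1 (-2.25, adjusted p = 1.8e-05), Rbfox2 (-1.70, adjusted p = 5.7e-10), Celf2 (-1.09, adjusted p = 0.0001) and Rbm24 (-1.16, adjusted p = 0.00056) lower and Mbnl3 (1.14, adjusted p = 0.0023) higher, where it called 10.4% of the genes with an adjusted p lower and 5.68% higher.

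**Figure D1:**
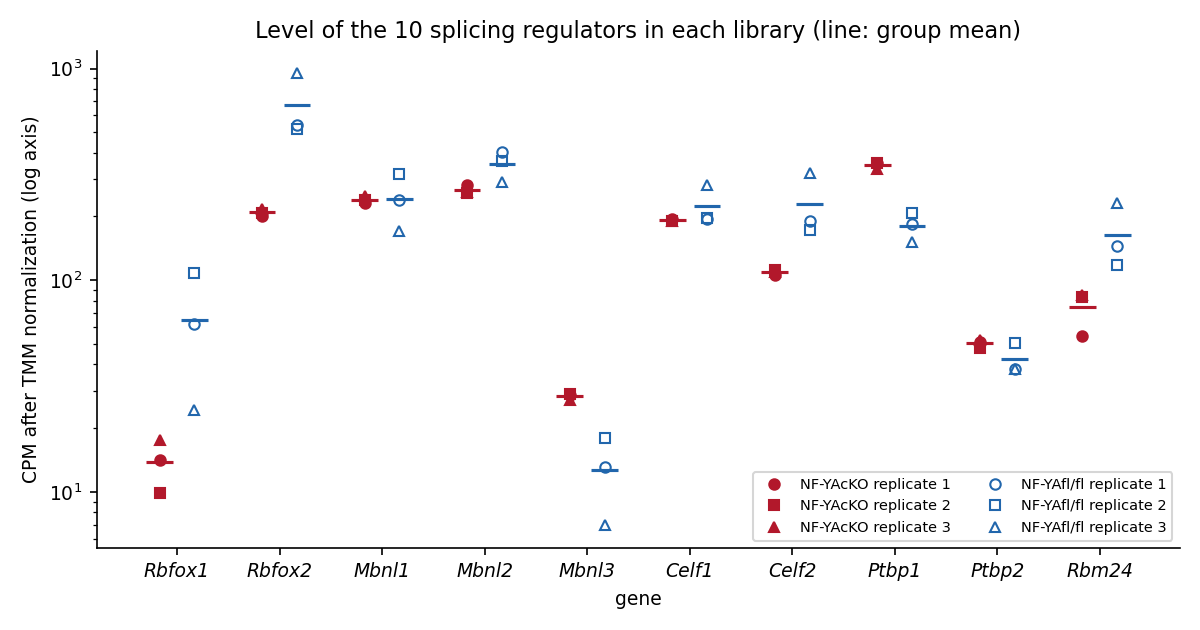
Levels of the 10 splicing regulators in CPM (log axis) in each of the 3 NF-YAcKO libraries (filled red) and 3 NF-YAfl/fl libraries (open blue), with a line at each group mean and 1 marker shape per replicate number. Rbfox2 sits between 201 and 218 CPM in NF-YAcKO and between 520 and 949 CPM in NF-YAfl/fl, and the NF-YAfl/fl libraries spread more than the NF-YAcKO libraries for all 10 genes.

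Rbfox2 lies on the minus strand of chromosome 15 of GRCm38 (77078990 to 77307004). Its level was 201, 208 and 218 CPM in NF-YAcKO and 541, 520 and 949 CPM in NF-YAfl/fl. No NF-YAcKO library came near the lowest control library, and NF-YAfl/fl replicate 3 was far above the other two. The log2 fold change was -1.68 (SE 0.24, edgeR FDR = 0.00264). Without NF-YAfl/fl replicate 3 it was -1.35 (FDR = 7.1e-05), and leaving out any one NF-YAcKO library raised the FDR to between 0.0135 and 0.0168, past the threshold of 0.01, at fold changes of -1.68 to -1.74.

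The remaining Rbfox2 RNA also differed in the shares of its forms. Rbfox2 has a pair of coding exons near its 3' end that are used in turn, and the tables list 9 of the 43 Rbfox2 transcripts under RefSeq names that the annotation ties to an exon model, so that the share of each exon can be added up over its transcripts. In the related genes Rbfox1 and Rbfox2 the exon of 43 nt is known as the muscle form and that of 40 nt as the form of brain and other tissues. The 4 exons are shown with the bases that differ between the paralogs in capitals, read 5′ to 3′ on the coding strand from the GENCODE M21 transcripts.

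Rbfox2 40-nt exon, chr15:77094451-77094490, minus strand: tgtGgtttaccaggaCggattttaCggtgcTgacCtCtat
Rbfox1 40-nt exon, chr16:7363865-7363904, plus strand: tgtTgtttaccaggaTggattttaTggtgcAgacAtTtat
Rbfox2 43-nt exon, chr15:77091812-77091854, minus strand: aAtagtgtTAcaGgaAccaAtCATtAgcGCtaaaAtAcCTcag
Rbfox1 43-nt exon, chr16:7369801-7369843, plus strand: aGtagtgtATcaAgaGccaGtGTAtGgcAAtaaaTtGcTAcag

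The paralogs share 34 of 40 bases of the shorter exon and 27 of 43 bases of the longer one. Transcripts with the 43-nt exon made up 3.43%, 5.01% and 8.67% of the Rbfox2 TPM (the deposited transcript level, scaled to length and library) in NF-YAcKO. In NF-YAfl/fl they made up 41.7%, 36.3% and 45.9%. Transcripts with the 40-nt exon went the other way, with 60.3%, 55.1% and 49.5% in NF-YAcKO against 6.51%, 13.6% and 4.97% in NF-YAfl/fl. The groups did not overlap for either exon (exact permutation test, two-sided, p = 0.1 for each, the smallest that 3 libraries against 3 can give). Between 36.3% and 51.8% of the Rbfox2 TPM was in transcripts with no exon model and could not be assigned. Of the TPM that could be assigned, the 43-nt exon was in 5.38%, 8.33% and 14.9% in NF-YAcKO and in 86.5%, 72.7% and 90.2% in NF-YAfl/fl. Within this assigned part, the prevailing exon was the 40-nt one in every NF-YAcKO library and the 43-nt one in every control library. The prevailing exon over all Rbfox2 RNA was not determined.

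**Figure D2:**
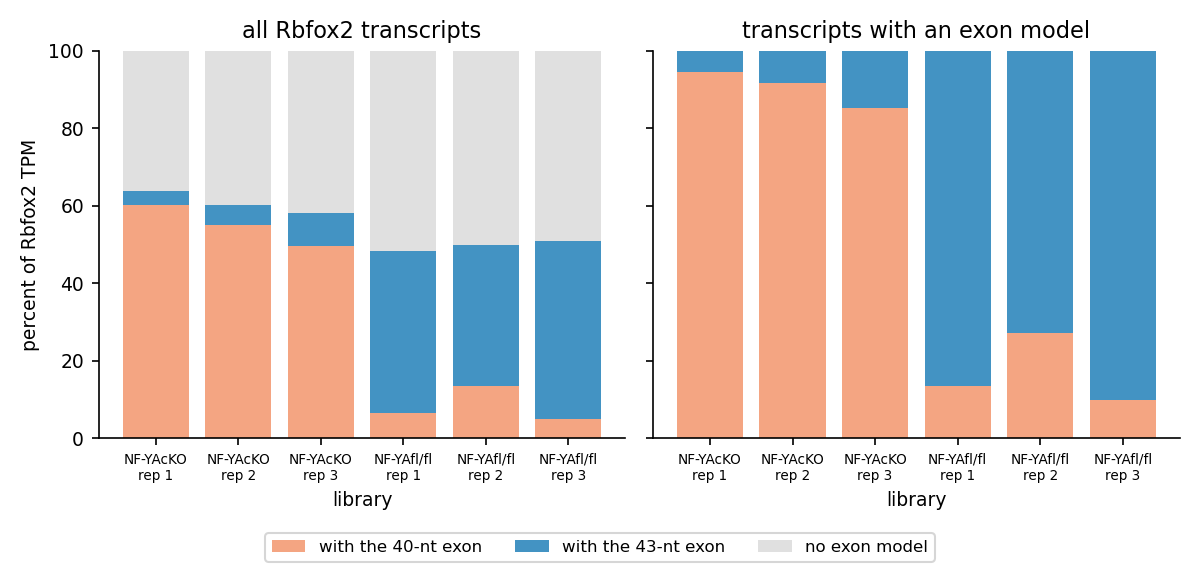
Share of the Rbfox2 TPM in transcripts with the 40-nt exon (orange), the 43-nt exon (blue) and no exon model (grey) in each library, over all Rbfox2 transcripts (left) and over those with an exon model (right). The 43-nt exon holds 3.43% to 8.67% in NF-YAcKO and 36.3% to 45.9% in NF-YAfl/fl of all Rbfox2 TPM.

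This switch rested on 4 transcripts, whose lengths in the tables differ from each other by exactly the difference of their internal exons in the 6 pairs compared. The usage test (edgeR's diffSpliceDGE, each transcript against the others of its gene, called with an FDR under 0.05) called Rbfox2, with an FDR of 9.4e-05 for the gene (0.059 without NF-YAcKO replicate 2, and under the threshold without any other library), where 3.29% of 9470 genes and 1.33% of all transcripts with such a test were called. NM_001110829.2, with the 43-nt exon, fell from 22.6%, 21.3% and 28.0% of the Rbfox2 TPM in NF-YAfl/fl to 0%, 0.2% and 4.3% in NF-YAcKO (usage FDR = 1.5e-05). The 0% stands for 0 of 6290 counts, and 3 counts would be 0.0477% of them. NM_001110828.2, with the 40-nt exon, was at 23.1%, 23.1% and 21.6% in NF-YAcKO and at 3.6%, 3.6% and 3.5% in NF-YAfl/fl (usage FDR = 0.022). NM_001110830.2, also with the 40-nt exon, was at 37.0%, 32.0% and 27.9% against 2.93%, 9.97% and 1.47% (usage FDR = 0.0036). The other 43-nt form, NM_001286419.1, fell from 116, 87.6 and 184 CPM to 8.06, 11.1 and 10.8 CPM (log2 fold change -3.69, SE 0.33, edgeR FDR over all transcripts = 0.0056). The shares of the 40-nt forms rose while their levels were not called, with 55.3, 54.8 and 54.1 CPM against 21.97, 21.6 and 35.97 CPM for NM_001110828.2 (log2 fold change 1.05, FDR = 0.043).

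A further exon, of 93 nt, was absent from 1 of the 4 transcripts, the 43-nt form NM_001286419.1, and present in the other three. It encodes part of the RNA recognition motif, and Rbfox forms that skip it are known to bind RNA poorly. Its sequence, all in lower case since no part is compared, reads as follows.

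Rbfox2 93-nt exon, chr15:77105577-77105669, minus strand: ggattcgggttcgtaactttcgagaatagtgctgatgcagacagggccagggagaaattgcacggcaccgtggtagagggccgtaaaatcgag

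Transcripts without the 93-nt exon held 3.6%, 4.76% and 4.37% of the Rbfox2 TPM in NF-YAcKO and 19.2%, 14.99% and 18% in NF-YAfl/fl (exact permutation test, two-sided, p = 0.1). Nearly all of this was NM_001286419.1, so that this share and that of the 43-nt exon are not separate measurements. XM_006521582.3, without an exon model, was also called lower, from 77.1, 79.3 and 112 CPM to 10.2, 12.4 and 14.7 CPM (log2 fold change -2.85, SE 0.22, FDR = 0.0041).

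Rbfox1 lies on chromosome 16 (5885355 to 7411526, plus strand) and codes for the muscle and neuron paralog. Its level was 14.2, 9.89 and 17.5 CPM in NF-YAcKO and 61.8, 108 and 24.5 CPM in NF-YAfl/fl. The control libraries differed widely among themselves, and the lowest of them was still above each NF-YAcKO library. The log2 fold change of -2.23 was the farthest from 0 among the 10 genes, with an SE of 0.52 and an FDR of 0.015, and it was not called. Without NF-YAfl/fl replicate 3, the lowest control, Rbfox1 was called lower (-2.62, FDR = 0.00078), and without replicate 2, the highest, it was at -1.65 (FDR = 0.028). The 43-nt form NM_183188.2 was at 0, 0 and 0.26 CPM in NF-YAcKO and at 20.9, 11.4 and 5.85 CPM in NF-YAfl/fl, or 0%, 0% and 3.15% against 57.5%, 23.7% and 46.2% of the Rbfox1 TPM (exact permutation test, two-sided, p = 0.1). Neither its level (FDR = 0.043) nor its usage (FDR = 0.15) was called. The 0% stands for 0 of 444 and 0 of 410 counts, which allow shares of up to 0.675% and 0.732%. The 40-nt form with an exon model, NM_021477.5, was listed at 0% in all 6 libraries, and in NF-YAcKO 96.9% to 100% of the Rbfox1 TPM was in transcripts without a model, so the exon in use there was not determined.

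Among the muscleblind genes, no difference in the level of Mbnl1 was detected. Mbnl1 (chromosome 3, 60472830 to 60629750, plus strand) was at 231, 238 and 250 CPM in NF-YAcKO and at 240, 318 and 170 CPM in NF-YAfl/fl. Its log2 fold change was -0.02, with a 95% interval from -0.52 to 0.49 (edgeR FDR = 0.95), and the control libraries lay on both sides of the NF-YAcKO libraries. Its sign turned in 3 of 16 alternatives, of which those that change only a threshold could not turn it. The lowest value was that of NF-YAfl/fl replicate 3, the library with few fibro-adipogenic markers.

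Mbnl1 and Mbnl2 share a regulated coding exon of 54 nt, known to affect where the protein sits in the cell, which is shown with the bases that differ between the paralogs in capitals.

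Mbnl1 54-nt exon, chr3:60614683-60614736, plus strand: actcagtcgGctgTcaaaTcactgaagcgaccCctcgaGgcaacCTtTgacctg
Mbnl2 54-nt exon, chr14:120395712-120395765, plus strand: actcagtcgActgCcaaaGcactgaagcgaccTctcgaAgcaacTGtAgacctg

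The paralogs share 46 of the 54 bases. Mbnl1 transcripts with this exon held 22.2%, 19.5% and 17.6% of its TPM in NF-YAcKO and 15.8%, 18.8% and 10.04% in NF-YAfl/fl, and the groups overlapped (exact permutation test, two-sided, p = 0.2). A 95-nt exon of Mbnl1 (60622146 to 60622240) was in 21.6%, 23.9% and 26.3% against 13.7%, 16.8% and 17.5%, with no overlap (p = 0.1 in the same exact test). Between 44.7% and 50.5% of the Mbnl1 TPM was in transcripts with no exon model, so these shares are not levels of inclusion. No Mbnl1 transcript was called by level or by usage (usage FDR of the gene = 0.66). The leading one, XM_006501784.2, held 31.4%, 28.7% and 29.2% of the TPM in NF-YAcKO and 23.6%, 25.6% and 20.0% in NF-YAfl/fl. Of the others over 10% in a group, NM_001310514.1, NM_020007.4 and NM_001253708.2 overlapped between the groups.

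Mbnl2 (chromosome 14, 120275669 to 120431697, plus strand) was at 282, 257 and 260 CPM in NF-YAcKO and at 405, 364 and 291 CPM in NF-YAfl/fl. The groups were close but did not overlap, and the log2 fold change of -0.41 (SE 0.14, FDR = 0.052) was not called. In TPM they did overlap, with 73.4, 57.0 and 65.6 against 103.7, 112 and 61.5. Its transcript usage was called (gene FDR = 3.5e-05), but not when only transcripts with at least 5% of the gene's TPM were kept (FDR = 0.70). XM_006518373.1 held 5.1%, 4.7% and 3.6% of the Mbnl2 TPM in NF-YAcKO, from 442, 489 and 389 expected counts. In NF-YAfl/fl it had 0, 0.12 and 0 expected counts, and 3 counts would be 0.0245% to 0.035% of the Mbnl2 counts there (usage FDR = 1.8e-05). This was the only member transcript called higher in level (FDR = 0.0061), where 0.39% of 45367 transcripts tested were called higher and 1.01% lower. XM_006518376.3 was called lower, from 127, 118 and 126 CPM to 53.7, 69.3 and 61.0 CPM (log2 fold change -1.01, SE 0.12, FDR = 0.0097). The leading transcript, NM_207515.2, was at 49.8%, 38.2% and 43.8% against 43.6%, 40.3% and 35.8% and overlapped. XM_006518374.3 was at 20.6%, 23.5% and 23.3% against 17.1%, 14.4% and 6.7% (usage FDR = 0.64). The diffSplice test of limma called Mbnl2 (FDR = 0.045) through XM_006518374.3 and not through XM_006518373.1. NM_207515.2 lacks the 54-nt exon, and NM_175341.4, the modelled form with it, was at 0% in every library. Between 50.2% and 64.2% of the Mbnl2 TPM was in transcripts with no exon model, whose exons were not determined.

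Mbnl3, the family member best known from undifferentiated cells, lies on the X chromosome (51117269 to 51206532, minus strand). It was at 28.7, 28.9 and 27.3 CPM in NF-YAcKO and at 13.1, 17.9 and 6.95 CPM in NF-YAfl/fl. Each NF-YAcKO library was above each control library, and the log2 fold change of 1.16 (SE 0.31, FDR = 0.025) was not called. Xist was also higher in every NF-YAcKO library, as were 29.1% of all genes tested, and a link to Mbnl3 was not tested. NF-YAfl/fl replicate 3 was again the lowest. Without NF-YAfl/fl replicate 2, the highest control, Mbnl3 was called higher (1.49, FDR = 0.0092), and without replicate 3 the log2 fold change was 0.86 (FDR = 0.0033), under the fold threshold. Its main transcripts, NM_134163.5 and NM_001310515.1, were split very unevenly among the control libraries, with 58.0%, 42.5% and 0% of the TPM for the first and 0%, 41.1% and 80.0% for the second, and no usage was called.

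**Figure D3:**
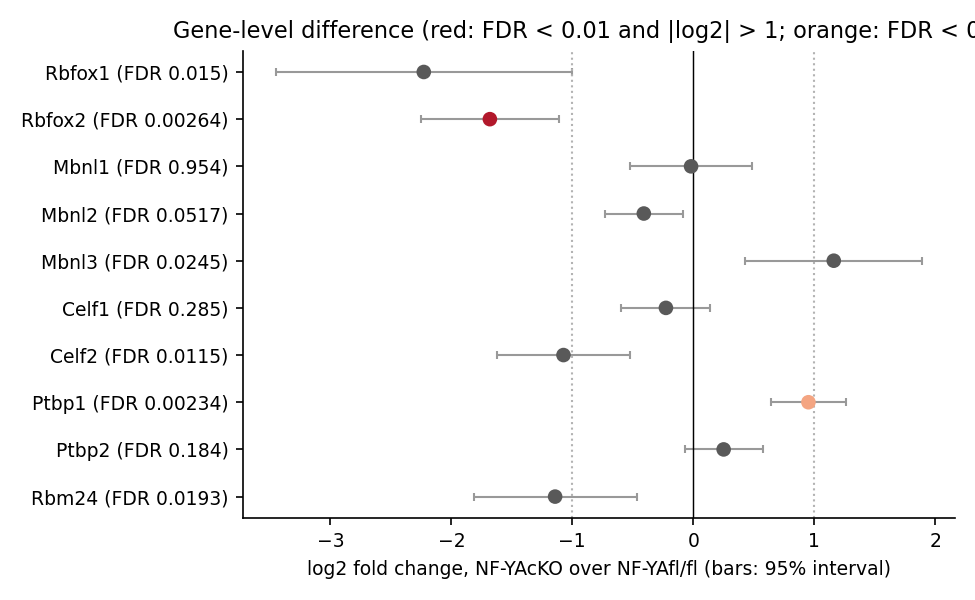
Log2 fold change of each gene in NF-YAcKO over NF-YAfl/fl with its 95% interval (bars) from edgeR and the FDR beside each name; dotted lines mark the fold threshold. Rbfox2 is the only gene past both thresholds, Ptbp1 (0.95) passes the FDR alone, and the interval of Rbfox1 is the widest.

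Of the Celf genes, Celf2 was lower in every NF-YAcKO library and Celf1 overlapped between the groups. Celf1 (chromosome 2, 90940382 to 91019497, plus strand) is found in most tissues, and its mean level was 191 ± 2.96 CPM in NF-YAcKO and 224 ± 49.2 CPM in NF-YAfl/fl (SD, n = 3 each). The log2 fold change was -0.23 with a 95% interval from -0.59 to 0.14 (edgeR FDR = 0.28). Celf2 (chromosome 2, 6539694 to 7509563, minus strand), enriched in muscle, brain and lymphoid cells, was at 106, 111 and 110 CPM in NF-YAcKO and at 191, 173 and 322 CPM in NF-YAfl/fl. It had a log2 fold change of -1.07 (SE 0.23, FDR = 0.012), just short of the FDR threshold, and was called lower without NF-YAfl/fl replicate 2 (-1.25, FDR = 0.0076), while it was -0.75 without replicate 3. Macrophage marker levels were higher in NF-YAcKO, and whether they bear on Celf2 was not tested. Within a library, the TPM of Celf1 was 2.66, 2.41 and 2.49 times that of Celf2 in NF-YAcKO and 1.34, 1.55 and 1.06 times in NF-YAfl/fl (exact permutation test, two-sided, p = 0.1).

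Transcript usage was called for Celf1, with an FDR of 1.8e-05 for the gene. XM_006498664.1 held 10.7%, 7.1% and 19.4% of the Celf1 TPM in NF-YAfl/fl, from 700, 621 and 1907 expected counts. In NF-YAcKO it had 0 counts in all 3 libraries, where 3 counts would be 0.0371% to 0.0491% of the Celf1 counts (usage FDR = 5.7e-06). NM_001244903.1 was likewise at 0 counts in NF-YAcKO and at 0.1%, 2.7% and 15.9% in NF-YAfl/fl (usage FDR = 0.00069), where replicate 3 carried most of the signal, and its usage was not called without NF-YAfl/fl replicate 2 or 3. The diffSplice test of limma did not call Celf1 (FDR = 0.38). The leading transcript, NM_198683.2, was at 57.2%, 53.7% and 60.3% in NF-YAcKO and at 52.0%, 47.6% and 27.5% in NF-YAfl/fl, and was not called. XM_006498661.1 was at 16.1%, 17.04% and 12.2% against 3.4%, 11.2% and 11.7%. For Celf2 no transcript was called by level or usage (gene usage FDR = 0.26), and the forms over 10%, NM_001110229.1, NM_001110230.1 and XM_017315442.1, had log2 fold changes of -0.49, -1.13 and -1.81.

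**Figure D4:**
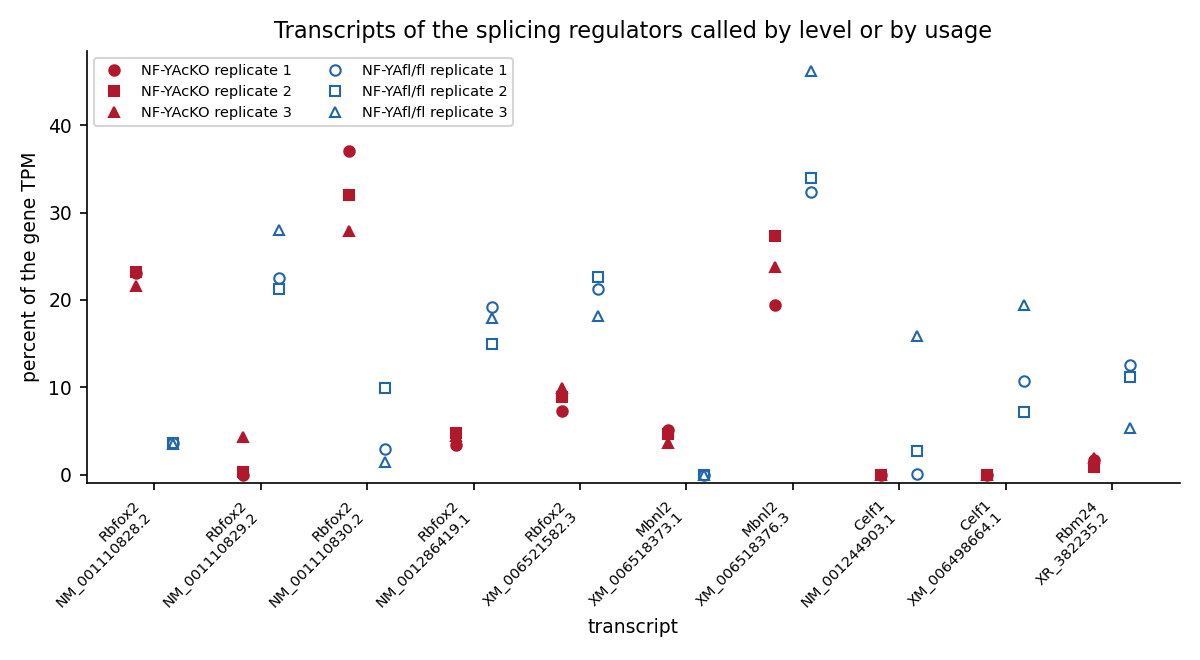
Percent of the gene's TPM in each library for the 10 transcripts of the splicing regulators called by level or by usage, with NF-YAcKO filled red and NF-YAfl/fl open blue. Rbfox2 NM_001110828.2 and NM_001110830.2 are higher in NF-YAcKO, Mbnl2 XM_006518373.1 is seen in NF-YAcKO alone, and Celf1 XM_006498664.1 in NF-YAfl/fl alone.

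Ptbp1 (chromosome 10, 79854427 to 79864771, plus strand) was the gene of the 10 with the highest TPM in NF-YAcKO. Its level was 359, 357 and 336 CPM in NF-YAcKO and 184, 209 and 151 CPM in NF-YAfl/fl. Every NF-YAcKO library was well above every control library, with a fold of 1.94 (log2 fold change 0.95, SE 0.13, 95% interval 0.64 to 1.27, FDR = 0.0023), which passed the FDR threshold and fell short of the fold threshold. The proliferation markers were also higher, with sums of 1334 to 1417 CPM against 508 to 969 CPM, and a link to Ptbp1 was not tested. Without NF-YAfl/fl replicate 2, the highest control, Ptbp1 passed both thresholds (1.06, FDR = 0.0019). The FDR was past 0.01 without any one NF-YAcKO library (0.0143 to 0.0194), without NF-YAfl/fl replicate 1 (0.013) and with limma on log2(TPM + 1) (0.041).

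The shares of the main Ptbp1 forms overlapped between the groups. A 78-nt coding exon separates the form PTB4 from shorter forms with different repressor activity.

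Ptbp1 78-nt exon, chr10:79860117-79860194, plus strand: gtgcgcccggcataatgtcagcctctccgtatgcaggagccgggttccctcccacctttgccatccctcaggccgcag

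The transcript with this exon, NM_001077363.2, held 51.5%, 51.6% and 50.3% of the Ptbp1 TPM in NF-YAcKO and 53.7%, 53.5% and 45.5% in NF-YAfl/fl (means 51.1% and 50.9%, exact permutation test, two-sided, p = 1). NM_008956.3, without it, had a log2 fold change of 0.99 (SE 0.099, FDR = 0.0074) and NM_001077363.2 one of 0.97 (SE 0.20, FDR = 0.038). These fold changes differed by less than their SE, and neither form was called.

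Ptbp2 (chromosome 3, 119718742 to 119784466, minus strand) overlapped between the groups. Its mean level was 50.3 ± 2.22 CPM in NF-YAcKO and 42.3 ± 7.34 CPM in NF-YAfl/fl (SD, n = 3 each), with a log2 fold change of 0.25 and a 95% interval from -0.07 to 0.57 (edgeR FDR = 0.18). NM_001310711.1 and NM_019550.2 held 45.4% to 49.4% and 41.8% to 49.2% of its TPM in NF-YAcKO, and both overlapped with the controls. The TPM of Ptbp1 was 7.15 to 8.28 times that of Ptbp2 in NF-YAcKO and 4.42 to 5.36 times in NF-YAfl/fl, without overlap (exact permutation test, two-sided, p = 0.1).

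Rbm24 (chromosome 13, 46418434 to 46431095, plus strand), a muscle and heart splicing activator, was at 54.5, 83.2 and 85.4 CPM in NF-YAcKO and at 145, 118 and 230 CPM in NF-YAfl/fl. The groups did not overlap, and the log2 fold change of -1.14 (SE 0.28, FDR = 0.019) was not called. Nearly all of its TPM, 98.1% to 99.1% in NF-YAcKO and 87.4% to 94.6% in NF-YAfl/fl, was NM_001081425.1. The non-coding record XR_382235.2 was called lower, at 1.69%, 0.87% and 1.95% against 12.6%, 11.1% and 5.36% of the TPM (log2 fold change -3.68, SE 0.41, FDR = 0.009).

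Over the 10 genes, 107 of the 215 transcripts passed the filter on low counts, of which 4 were called lower and 1 higher. Without NF-YAfl/fl replicate 3 there were 2 lower and 1 higher, and without any one of the other 5 libraries none was called. Usage was called for 6 transcripts of 3 genes, Rbfox2, Mbnl2 and Celf1. RSEM estimates how reads common to several transcripts divide among them, so the split between forms that differ by a short exon is less certain than the level of the gene.

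The order of the genes by TPM, which allows comparison between genes, differed between the groups. In NF-YAcKO, Ptbp1 led with 129 ± 10.8 TPM (SD, n = 3), followed by Mbnl2 with 65.3 ± 8.16, Mbnl1 with 51.2 ± 4.48, Rbfox2 with 39.8 ± 4.10 and Celf1 with 37.9 ± 3.87. Then came Rbm24 with 25.7 ± 5.22, Ptbp2 with 16.7 ± 2.05, Celf2 with 15.0 ± 0.893, Mbnl3 with 3.52 ± 0.26 and Rbfox1 with 1.77 ± 0.591. Only the neighbours Rbfox2 and Celf1, and Ptbp2 and Celf2, overlapped in their ranges over the NF-YAcKO libraries. In NF-YAfl/fl the order began with Rbfox2 at 129.8 ± 24.8, Mbnl2 at 92.5 ± 27.3 and Ptbp1 at 72.6 ± 24.9, and ended with Rbfox1 at 10.1 ± 6.86 and Mbnl3 at 1.78 ± 1.05. There each of the first 6 genes overlapped with the next one in the order, and Celf2 at 31.9 ± 5.80 did not overlap with Ptbp2 at 15.2 ± 5.49. The ratio of Ptbp1 to Rbfox2 TPM within a library was 3.34, 3.38 and 2.997 in NF-YAcKO and 0.664, 0.776 and 0.311 in NF-YAfl/fl. The prevailing member of this pair was Ptbp1 in every NF-YAcKO library and Rbfox2 in every control library. The TPM of each gene already separated the groups, in opposite directions. The ratio therefore had to separate them too, and its exact permutation test (two-sided, p = 0.1) adds no further result.

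Other splicing factor genes give the setting for these values. Among the paralogs of the 10 genes, 6 of 8 were tested. Rbm38 (log2 fold change -1.60, edgeR FDR = 0.0035), a close relative of Rbm24, and Rbm20 (-1.41, FDR = 0.0051), which regulates titin splicing, were called lower, and Celf4 (1.02, FDR = 0.0057) was called higher. Ptbp3, the third PTB paralog, had a log2 fold change of 0.82 (FDR = 0.0015) and was not called. Of 14 other tissue-restricted regulators tested, Srrm4, an activator of neuronal microexons, was called lower (-2.40, FDR = 0.00095), at 0.89 to 1.24 CPM in NF-YAcKO. Of the SR proteins, general activators of exon inclusion, 12 of 13 genes lay above all controls in every NF-YAcKO library (29.1% of all genes), and the median log2 fold change of the list was 0.81. Of them 10 passed the FDR threshold alone, where 10.3% of all genes did so upward, and Srsf1 (1.07, FDR = 0.0027) was called. Of the 23 hnRNP proteins none was called, 9 passed the FDR alone, all higher (10.3% of all genes), and the median was 0.52. The 2 with the smallest FDR were Hnrnpab (log2 fold change 0.998, FDR = 0.00077) and Hnrnpf (0.92, FDR = 0.00092). Among 7 splicing kinases, Srpk3, the muscle-specific SR protein kinase, was called lower, from 24.4, 26.4 and 18.3 CPM to 0.86, 0.72 and 0.89 CPM (log2 fold change -4.80, SE 0.21, FDR = 5.7e-05). The PTB partners Matr3 (0.31, FDR = 0.035) and Raver2 (0.45, FDR = 0.21) were not called.

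**Figure D5:**
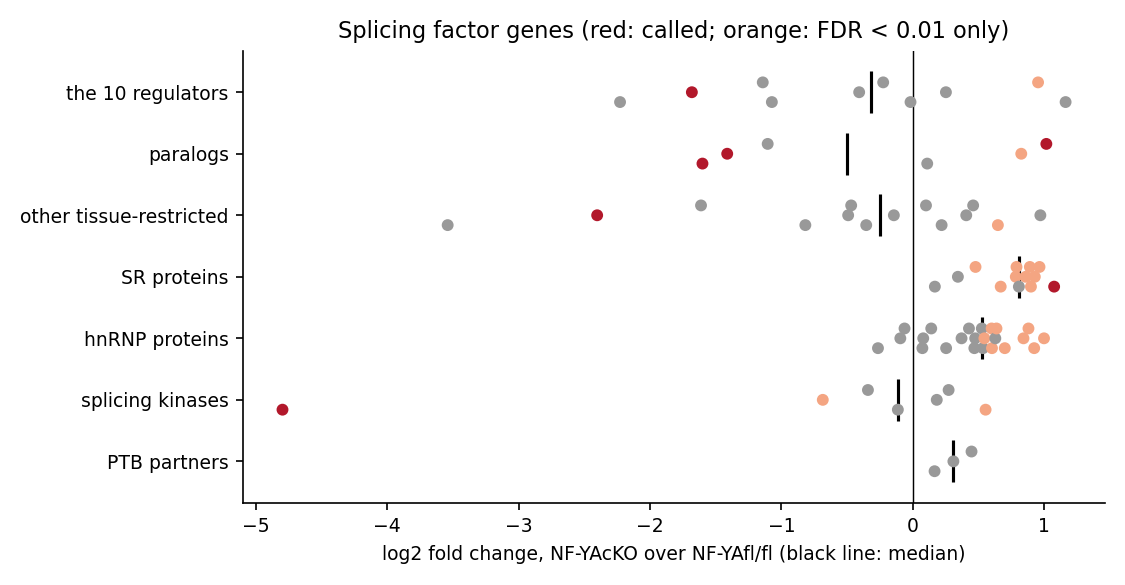
Log2 fold change in NF-YAcKO over NF-YAfl/fl of each tested gene in the 10 regulators and 6 lists of splicing factors (points, red where called and orange where only the FDR threshold is passed), with the list median as a black line. The medians of SR proteins (0.81) and hnRNP proteins (0.52) lie above 0, and Srpk3 (-4.80) is the lowest point.

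Promoters were searched for CCAAT, the sequence that NF-Y binds, on either strand (CCAAT or ATTGG), since NF-YA is the deleted subunit. RefSeq promoter windows of 250 bases before to 50 after the start (GRCm38) were at hand for 9 of the 10 genes. The gene left unsearched was Rbfox2, the one called. Of their 15 windows 3 held the motif, 1 each of Mbnl1, Mbnl2 and Ptbp1, against 37.4% of all 32851 windows. Some genes have more than 1 window. By gene, 3 of 9 held the motif in a window, against 41.1% of 27025 genes. The window of Ptbp1 held it once, 62 bases before the start, and is shown from 120 bases before the start with the motif in capitals, as the member that passed the FDR threshold with a higher level.

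Ptbp1 promoter, chr10:79854312-79854431, plus strand: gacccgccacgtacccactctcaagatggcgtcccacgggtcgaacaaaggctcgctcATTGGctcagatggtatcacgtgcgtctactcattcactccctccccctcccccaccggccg

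Of the genes lower in every NF-YAcKO library, the window of Mbnl2 held the motif 2 times, 199 and 28 bases before the start, and those of Rbfox1, Celf2 and Rbm24 held none. These matches describe letters in a window and no binding was measured.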

How the data were processed

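RNA-seq of cultured SCs was compared between 3 NF-YAcKO and 3 NF-YAfl/fl libraries, grouped by the labels. Per the labels and the study's methods, the authors aligned stranded paired reads of 75 nt to the mouse transcriptome (mm10) with Bowtie 2 and quantified them with RSEM 1.3.1. Expected counts were deposited without normalization, and RSEM splits a read shared by transcripts by likelihood, so paralogs and transcript forms are estimates. TPM was deposited as RSEM computes it, per effective length and per library, and the deposited percent of each transcript is its share of the gene's TPM.

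Expected counts were rounded. Genes or transcripts above 10 counts in 2 or more libraries were tested with edgeR 4.0.16 (TMM, quasi-likelihood, two-sided, R 4.3.3). The study used DESeq2, tried here (1.42.0) as an alternative, with limma 3.58.1 on TPM and others. SE is the fold change over the square root of F. Intervals use its degrees of freedom. Exons came from GENCODE M21 (GRCm38) models of the RefSeq names. On simulated counts, 200 of 200 changed genes were called, with 2 false calls among 17002 genes. The usage test recovered 199 of 200 changed genes, with 22 false calls among 9099 genes. The planted changes were larger than most of those seen in the 10 genes, and the simulated spread was fixed for all genes. These rates therefore need not hold for the data. Totals of 26936230 to 41118984 make 3 counts 0.0705 to 0.115 CPM, and floors cover counting error only. Same-numbered libraries correlated at 0.17, -0.069 and 0.053 in their deviations from the group means, and the first was the highest of all pairs of libraries. With 3 libraries per group this cannot decide whether the numbers pair them. The main test had no replicate block, which was tried as an alternative. The 10 genes and all lists were chosen with earlier results of these data known. All 10 genes were named, with transcripts that reached 10% of the gene's TPM in a group or were called, up to 5 called genes per list and direction, the 2 of smallest FDR in a list with none, and the 6 targets of smallest usage FDR. Plots were drawn with matplotlib 3.10.9. One of those targets is not reported here.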

Additional observations from a re-analysis of the deposited data

How the results depend on the processing

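With 3 libraries per group, the calls rested on FDR values close to the threshold while directions held. Of 160 alternative values of single genes, 3 turned the sign, all for Mbnl1, to 0.0082 with no filter, 0.027 with the replicate block and 0.22 without NF-YAfl/fl replicate 2 (-0.22 to 0.22 leaving out each library). Settings that change only the FDR or fold threshold keep the main fold change, so their values among the 160 could not turn. The count of genes called lower was 1 in the main test. It was 4 with DESeq2 and with an FDR under 0.05, 3 with no filter and with limma on log2(TPM + 1) and log2(TPM + 0.1), 2 with filterByExpr and with unrounded counts, and 0 to 2 leaving out each library. The count called higher, 0 in the main test, was 1 with DESeq2, with an FDR under 0.05 and with no fold threshold, and 0 to 2 leaving out each library. Transcripts called lower were 4, with 0 under the replicate block and 0 to 2 leaving out a library. Transcripts called higher were 1, with 2 with no filter and with no fold threshold, 0 under the replicate block and 0 to 1 leaving out a library. Transcript usage was called for 6 transcripts, and for 2 when only those with 5% of the gene's TPM were kept, which tests fewer. Genes with usage called were 3, or 2 with limma's diffSplice, with that filter and without NF-YAcKO replicate 2. Over the splicing lists and target genes, 2 genes were called higher, with 1 by DESeq2, 1 under the replicate block, 23 with no fold threshold and 0 to 7 leaving out a library. Those called lower were 18, with 20 by DESeq2, 20 with no fold threshold and 17 under the replicate block. Leaving out a library gave 14 to 20. The replicate block changed no call of the 10 genes or of their transcript usage. The difference of Rbfox2 exon shares, 46.6 percentage points for the 40-nt exon and -35.6 for the 43-nt exon, was 53.5 for the former as a share of counts, and 73.6 and -73.6 over transcripts with a model, alternatives chosen after seeing the data. The cause was not tested where none is given.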

Other observations

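Usage was called for 13 of 26 genes whose exons are known targets of these regulators, against 3.29% of all genes with the test. The test compares whole transcripts, so a call need not rest on the target exon. In level, 14 of the 26 were called lower, where 7.67% of all genes were. The 5 lowest were Cacna1s (log2 fold change -8.34), Atp2a1 (-6.81), Ldb3 (-5.51), Ttn (-5.30) and Tnnt3 (-5.21), components of the sarcomere and of calcium handling. The differentiated muscle markers, a list that also holds Tnnt3, were lower as well. Genes among those with the smallest usage FDR were Fxr1, Dmd, Bin1, Mef2d and Dtna.

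Fxr1 codes for an RNA-binding protein with a muscle form that contains an additional 81-nt exon (chr3:34064974-34065054). NM_001113188.1, the form with this exon, held 30.0%, 24.4% and 27.2% of the Fxr1 TPM in NF-YAfl/fl and 0% in all 3 NF-YAcKO libraries (usage FDR = 8.8e-13). NM_001113189.1, without it, was at 48.5%, 50.6% and 56.5% in NF-YAcKO and at 14.2%, 25.7% and 20.9% in NF-YAfl/fl (usage FDR = 0.0052). The 0% of NM_001113188.1 stands for 0 counts, and 3 counts would be 0.0346% to 0.0494% of the Fxr1 counts there. Between 29.2% and 31.8% of the Fxr1 TPM in NF-YAcKO, and 37.0% to 38.6% in NF-YAfl/fl, had no exon model. Whether those transcripts hold the 81-nt exon was not determined.

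Mef2d, a myogenic transcription factor, has alternative exons of 138 nt and 135 nt, of which the latter (chr3:88158221-88158355) is the muscle one. NM_001310593.1, with the 135-nt exon, was at 2.78%, 9.55% and 4.71% of the Mef2d TPM in NF-YAcKO and at 42.0%, 42.0% and 38.7% in NF-YAfl/fl (usage FDR = 0.00037). NM_133665.4, with the 138-nt exon and without a 21-nt exon, was at 64.2%, 34.4% and 66.7% in NF-YAcKO and at 0% in NF-YAfl/fl (usage FDR = 6.8e-08). The 21-nt exon was found only in NM_001310587.1 among modelled forms, at 0% in NF-YAcKO and 22.6%, 6.75% and 20.6% in NF-YAfl/fl. That form also holds the 138-nt exon. Modelled transcripts with the 138-nt exon thus held 64.2%, 34.4% and 66.7% in NF-YAcKO and 22.6%, 6.75% and 20.6% in NF-YAfl/fl. Between 28.6% and 56.0% of the Mef2d TPM had no exon model and could not be assigned.

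For Dmd, the dystrophin gene, the form NM_007868.6 held 83.4%, 72.7% and 84.7% of the TPM in NF-YAfl/fl and 2.8%, 1.8% and 1.2% in NF-YAcKO (usage FDR = 1.1e-09). NM_001314034.1 and NM_001314036.1 held 25.1% to 39.0% and 29.2% to 41.02% in NF-YAcKO and 0% in NF-YAfl/fl. All 3 forms contain the 39-nt coding exon of Dmd, so their shares do not describe its use. Of the Dmd TPM that could be assigned, this exon was in 92.5% to 100% in NF-YAcKO and 98.3% to 99.8% in NF-YAfl/fl. In NF-YAcKO replicate 1, 54.84 expected counts were 2.76% of the TPM for NM_007868.6, and 189.67 were 29.94% for NM_001314034.1. TPM is scaled to length, so NM_007868.6 is the longer of these. XM_006525991.3 of Bin1 was at 0%, 0% and 1.1% in NF-YAcKO and at 50.6%, 42.9% and 37.4% in NF-YAfl/fl (usage FDR = 2.5e-08), and XM_017317817.1 of Dtna at 0% and at 21.5%, 24.8% and 18.9% (usage FDR = 6.2e-08). Whether the levels of the regulators bear on these forms was not tested.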
